A study of Homo sapiens with 33 samples.

Results

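The subject here is how alike 2 compounds that inhibit the anaplastic lymphoma kinase (ALK), A3 and A2, were in what they did to messenger RNA of lymphoma cells. The members were the 3 arrays titled A3 and the 3 titled A2, chosen by title, which made 6 of the 33 arrays of the series. All were of TS cells, a subclone of the human line Sup-M2 of anaplastic large cell lymphoma (ALCL), and both compounds were given at 300 nM for 6 h, so dose and time were matched. The other arrays of the same experiment were 3 of TS cells given compound A1 at 300 nM for 6 h and 3 of TS cells without compound, titled U. The design text calls A1 a mock compound and the sample descriptions call it an ALK inhibitor. For U, the design text gives a control diluent and the descriptions say untreated. The labels describe the inhibitors as derived from pyrrolocarbazole and give them only by code, so how A3 and A2 differ in structure is not stated here. The remaining 21 arrays were of the same line and of Su-DHL1 cells with a doxycycline-switched hairpin RNA against ALK or its mutated form. The labels do not say whether the 3 arrays of a group came from separate cultures, and the p-values therefore rest on a spread between arrays that may be technical.

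In most ALCL of this kind a chromosome translocation joins the kinase domain of ALK to NPM1 or another partner, and the fusion kinase is active without a ligand. It signals through STAT3, through RAS and ERK, and through PI3K and AKT, and these routes keep genes for growth, survival and immune evasion switched on. Genes at the ends of these routes, such as SOCS3 for STAT3 or DUSP6 for ERK, respond within hours when the kinase is blocked, which makes them readouts of how strongly a compound acts.

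Gene expression was read on Affymetrix HG-U133A arrays as the signal that the MAS5 algorithm gives each probe set, a linear brightness, with 1 probe set standing for each of 8587 genes that passed a filter on low signal. The number of arrays limits the precision, and because MAS5 scales every array to a common mean (trimmed means of 200.06 to 200.07 on the 12 arrays), a change in total RNA per cell could not be seen. These are bulk cultures, in which fewer cells of a type and less RNA per cell cannot be told apart. Of the ALCL markers, ALK lay at 2380.6 to 3138.7 on A3 arrays and 2699.5 to 3068.4 on A2 arrays, against 2958.6 to 4026.9 on A1 and U arrays. IL2RA (CD25) lay at 469.5 to 628.4 on A3 arrays and 542.9 to 591.9 on A2 arrays, against 1912.8 to 2713.8 on A1 and U arrays. TNFRSF8 (CD30) lay at 215.8 to 234.2 on A3 arrays and 175.9 to 193.5 on A2 arrays, without overlap (log2 0.23, adjusted p = 0.613), against 1587 to 2523.1 on A1 and U arrays. Against A1 each of these markers fell in the mean of A3 and A2, ALK by 0.37, IL2RA by 1.81 and TNFRSF8 by 3.05 on the log2 scale. The T-cell markers were uneven: CD3D lay at 1030.8 to 1119.8 on A3 arrays and 793.6 to 911.2 on A2 arrays, whereas LCK and CD247 did not pass the filter and CD2 stayed at or below 32.3 on all 6. Of the lists of other cell types, 7 of 12 B-cell, 5 of 14 myeloid and 9 of 14 epithelial and stromal markers passed. The summed signal of the B-cell list was 342 to 464 on A3 arrays and 338 to 456 on A2 arrays. That of the myeloid list was 2900 to 3380 on A3 arrays and 2700 to 3130 on A2 arrays, and that of the epithelial and stromal list was 7910 to 9960 on A3 arrays and 7170 to 8840 on A2 arrays. Of the listed markers that did not pass, CD14 and LYZ, KRT19, CDH1 and EPCAM, and CD79B were at signals of 16.9 or less on all 6 arrays. Other listed markers were expressed: VIM lay at 7145.1 to 9232.6 on A3 arrays and 6515.7 to 8099.9 on A2 arrays, CST3 at 474.3 to 803.3 and 538 to 840.6 on arrays of A3 and A2, and FCER1G at 2086.3 to 2206.1 on A3 arrays, without overlap with its 1778.2 to 1902.7 on A2 arrays (log2 0.22, adjusted p = 0.543). The other listed markers that passed had lower signals. They were CSF1R, ITGAM and S100A9 of the myeloid list, and PAX5, CD22, MS4A1, CD79A, BLK, IGKC and VPREB3 of the B-cell list. Of the epithelial and stromal list they were KRT8, KRT18, COL1A1, COL1A2, FN1, ACTA2, THY1 and PECAM1. The part of other cell types in the results below was not tested.

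The A3 arrays were less uniform than the A2 arrays. Across genes, the 3 A2 arrays correlated with each other at Pearson r of 0.9788 to 0.9796, and A3 replicates 1 and 3 at 0.9796. A3 replicate 2 correlated at 0.9753 and 0.9755 with the other A3 arrays and at 0.9776 to 0.9805 with the A2 arrays, so it stood closer to the A2 arrays than to its own group. Its ACTB ratio of 3′ to 5′ probe sets, a sign of RNA integrity, was 0.917, against 1.224 and 1.041 on the other A3 arrays and 1.048 ± 0.026 (SD, n = 3) with A2. All 6 arrays of A3 and A2 were far from the arrays of A1 and U, at r of 0.912 to 0.932. Among the controls, A1 replicate 2 correlated at 0.970 with each of the other A1 arrays, which correlated with each other at 0.983, and it enters the comparison of A3 with A2 only through the shared estimate of spread. These correlations run over genes, which are not independent replicates.

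**Figure D1:**
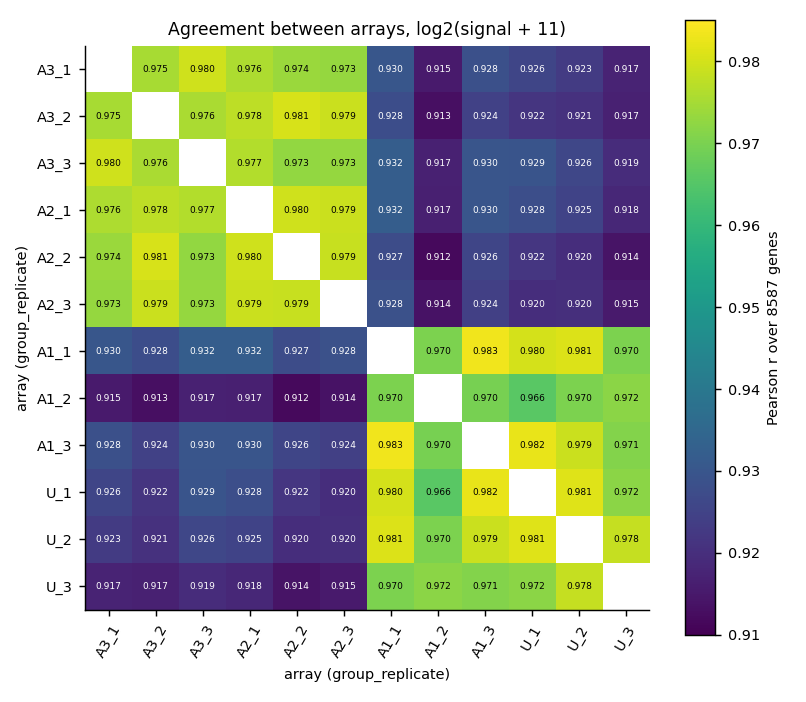
Pearson r between each pair of the 12 arrays of the inhibitor experiment, over 8587 genes on the log2(signal + 11) scale. The A3 and A2 arrays formed a block of high values, within which A3 replicate 2 was nearer to A2 arrays (0.9776 to 0.9805) than to the other A3 arrays (0.9753 and 0.9755).

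Differences between A3 and A2 were few and small. At an adjusted p below 0.05 (limma, Benjamini-Hochberg over genes), 13 of 8587 genes (0.151%) differed, 5 higher (0.0582%) and 8 lower (0.0932%) with A3, and 762 (8.87%) had an unadjusted p below 0.05. Each of the 13 differed by at least 1.5-fold, and 1 of them, HSD17B3, by at least 2-fold (0.0116%). In the same fit A3 against A1 gave 2805 genes (32.7%), A2 against A1 gave 2871 (33.4%), A3 against U gave 2894 (33.7%) and A2 against U gave 3018 (35.1%). A1 against U gave 3 (0.0349%), with 765 (8.91%) at an unadjusted p below 0.05. The size of the differences between A3 and A2 was also near that between A1 and U: the median absolute log2 difference was 0.137 for A3 against A2 and 0.133 for A1 against U, and its SD over genes was 0.234 and 0.229. Against A1, the median absolute log2 difference was 0.30 for A3 and 0.307 for A2.

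The count of 13 depended on single arrays. It was 0 without A3 replicate 1, A3 replicate 3, A2 replicate 1 or A2 replicate 3, 1 without A2 replicate 2, 8 without A3 replicate 2 (6 of them among the 13) or U replicate 1, and 6 without U replicate 2. Among the 6 pairs of groups, adjusting over all pairs and genes together called 237 genes between A3 and A2, because the many genes of the other pairs moved the highest unadjusted p that is called to 0.0107, against 7.14e-05, whereas multiplying the adjusted p by the 6 pairs called 0.

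A p that misses the threshold does not show that the compounds acted alike, so the 95% interval of each difference was used to bound it. It lay wholly within 1.5-fold either way for 5409 genes (63%) and wholly within 2-fold for 8020 genes (93.4%). The other 567 genes had intervals that reached beyond 2-fold. The filter asked for only 3 of the 12 arrays, so these counts include genes near the floor with both compounds. For such genes the constant added before the log shrinks any difference, and an interval within these limits does not show likeness. The median half-width of the interval was 0.346 on the log2 scale, with 0.234 and 0.716 at the 5th and 95th percentiles of genes. For A1 against U the same counts were 5470 genes (63.7%) and 8046 genes. The 5th and 95th percentiles of the log2 differences were -0.37 and 0.36, around a median of 0.007.

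The shared response of the cells was described with genes chosen on the mean of A3 and A2 minus A1. In this balanced design the estimate of that contrast is independent of the estimate of A3 minus A2. Both share the same spread per gene, so choosing by adjusted p favours genes with narrow intervals of A3 minus A2. The response contrast called 3290 genes (38.3%), of which 1796 (20.9%) changed by at least 1.5-fold: 941 rose and 855 fell. In the 941 genes that rose, the median log2 change against A1 was 0.80 with A3 and 0.83 with A2, and the median of A3 minus A2 was -0.025. In the 855 that fell it was -0.92 with A3 and -0.93 with A2, and the median of A3 minus A2 was 0.015. The interval of A3 minus A2 lay within 1.5-fold for 624 (66.3%) of those that rose and 562 (65.7%) of those that fell. The count for genes that fell includes some near the floor with both compounds, such as CCL20, where a difference was not measurable. Among the 10 deepest falls, 4 lay below the 40th percentile on all 6 arrays of A3 and A2. How many of the 562 were such genes was not counted. A score per array, the mean log2 change from A1 in the direction of the response, was 0.991, 1.026 and 0.962 on the A3 arrays and 0.996, 1.026 and 1.017 on the A2 arrays, so the groups overlapped. With separate control arrays for each compound, A3 minus U and A2 minus A1 correlated at Pearson r = 0.858 and Spearman rho = 0.782 over the 8587 genes, and A3 minus A1 and A2 minus U at 0.842 and 0.757. These are descriptions, since genes share arrays, handling and platform. Chosen against U instead, with the same limits, 1009 genes rose and 924 fell, with medians of A3 minus A2 of -0.028 and 0.019. A1 did not match U in every list. The mean log2 level of the ATF4 amino acid response list relative to A1 was -0.476, -0.412 and -0.481 on the U arrays. It was -0.387, -0.414 and -0.391 on the A3 arrays and -0.39, -0.398 and -0.467 on the A2 arrays. The fall of that list from A1 was thus not a fall from U.

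**Figure D2:**
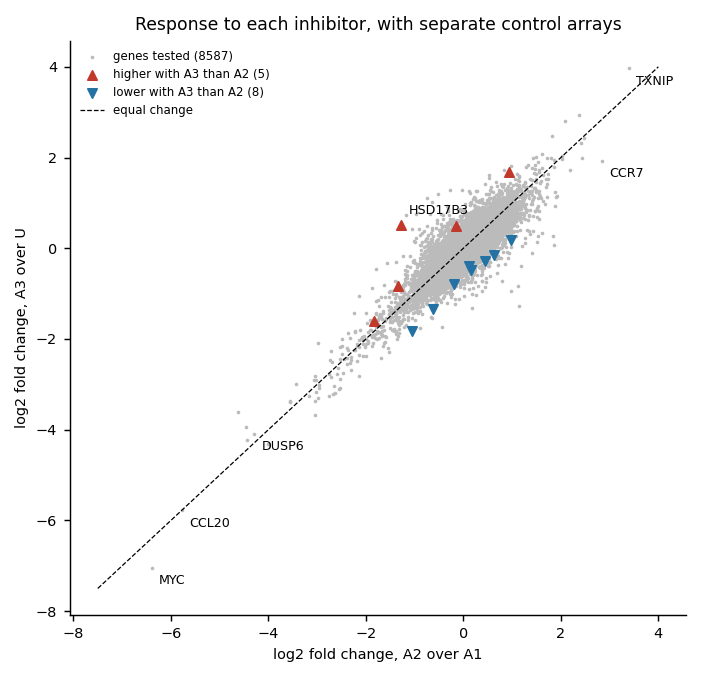
The log2 fold change of each gene with A3 over U (vertical axis) and A2 over A1 (horizontal axis), so that no control array enters both. Genes lay along the line of equal change (Pearson r = 0.858), with the 5 genes called higher and the 8 called lower with A3 than with A2 marked.

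The 10 genes with the deepest falls were MYC, CCL20, CEMIP, DUSP6, HBEGF, SOCS3, IL10, CD300A, RRS1 and SOCS1. Of these 4 lay below the 40th percentile of the array on all 6 arrays of A3 and A2, where a difference between the compounds could hardly be measured. MYC, the growth regulator downstream of both STAT3 and ERK, had signals of 12.1, 10.5 and 7.2 with A3 and 7.6, 38.8 and 20.7 with A2, against 2722.7, 2407.5 and 2641.1 with A1 and 2714.9, 2701.3 and 2769.6 in U. It fell with both (adjusted p = 1.45e-12 with A3 and 4.41e-12 with A2 against A1), but at signals this near the 20th percentile of the table (10.8) the size of the fall is set by the constant of 11 added before the log. The log2 difference of A3 minus A2 was -0.57 (adjusted p = 0.466), and -0.86 or -0.34 with a constant of 1 or 32, and the groups overlapped. CCL20, a chemokine made by activated lymphocytes, had signals of 4.8, 4.5 and 6.9 with A3 and 6.7, 2.5 and 8.4 with A2, against 944.2, 911.4 and 849.4 with A1. Its interval for A3 minus A2 ran from -0.35 to 0.30. All 6 signals with A3 and A2 were under 10.8, so a difference between the compounds was not measurable there. CEMIP, a hyaluronan-degrading protein, was above that level, with 36.6, 32.4 and 45.1 with A3 and 35.9, 33.2 and 41.8 with A2, against 1062.3, 1038.7 and 998.6 with A1, and CD300A, an inhibitory receptor of leukocytes, had 120.6, 113.5 and 100.3 with A3 and 80.6, 105.6 and 88.3 with A2, against 1155.7, 1210.7 and 1215.5 with A1. Their intervals for A3 minus A2, -0.24 to 0.30 for CEMIP and 0.02 to 0.51 for CD300A, lay within 1.5-fold. That of CD300A left out 0, but the difference of 0.26 did not pass the test (adjusted p = 0.527).

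Among negative feedback genes, DUSP6, the phosphatase that shuts off ERK and is made when ERK is active, had signals of 4.9, 13.4 and 8.3 with A3 and 17.4, 1.8 and 12.2 with A2, against 354.9, 498.9 and 329.3 with A1. SOCS3, the STAT3-induced brake on cytokine receptors, had 14.9, 11.1 and 4.3 with A3 and 7.2, 29.0 and 7.5 with A2, against 392.6, 307.1 and 419.9 with A1. Both genes lay around the 20th percentile with either compound, so these values cannot show whether A3 and A2 differed. A second probe set of SOCS3 was brighter, with means of 60.8 with A3 and 76.5 with A2. Its log2 difference was -0.28 (limma adjusted p = 0.586). IL10, an immunosuppressive cytokine and STAT3 target, had 16.0, 33.8 and 15.8 with A3 and 21.6, 3.3 and 2.6 with A2, against 392.9, 371.5 and 426.3 with A1. Its log2 difference of 0.79 (adjusted p = 0.384) did not pass the test and was 1.61 or 0.40 with a constant of 1 or 32, at signals of 33.8 or less.

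As a whole, the list of 21 tested ERK feedback and target genes had 19 members called lower and 1 called higher in the shared response, with a median log2 change from A1 of -2.15 with A3 and -2.37 with A2. Its median of A3 minus A2 was 0.094, 0 members were called (limma; 1 higher and 2 lower at an unadjusted p below 0.05), and 10 had intervals within 1.5-fold. Of 24 tested STAT3 targets, 18 were lower and 1 higher in the response, the medians were -1.19 with A3 and -1.20 with A2, and A3 minus A2 had a median of -0.058 with 0 called (2 higher and 1 lower at an unadjusted p below 0.05). The mean log2 level of the ERK list relative to A1 was -2.23, -2.10 and -2.24 on the A3 arrays and -2.21, -2.22 and -2.24 on the A2 arrays. That of the STAT3 list was -1.75, -1.69 and -1.80 on the A3 arrays and -1.78, -1.62 and -1.78 on the A2 arrays. In both lists the 2 groups of arrays overlapped. Over all genes tested 0.151% were called, 8.87% had an unadjusted p below 0.05 (limma) and 63% had intervals within 1.5-fold. On all 6 arrays, 4 members of the ERK list and 3 of the STAT3 list lay below the 40th percentile, and without them the medians of A3 minus A2 were 0.113 and -0.059.

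CISH, a STAT-induced member of the same brake family as SOCS3, is shown for its promoter, which holds 4 copies of the STAT motif TTCNNNGAA. It was chosen after its values were seen. Its signals were 103.4, 115.1 and 141.6 with A3 and 123.1, 121.8 and 128.2 with A2, against 826.8, 776.3 and 748.9 with A1, and the log2 difference between A3 and A2 was -0.06 with an interval of -0.31 to 0.19. The interval lay within 1.5-fold, while the gene fell by 2.61 with A3 and by 2.55 with A2 on the log2 scale from A1. The motif, which reads the same on both strands, occurred in 2 of 19 promoters of the tested STAT3 targets (10.5%) and in 7.88% of all 27305 promoters of the same length, and a match of letters is not a binding site. The promoter (RefSeq, build GRCh38.p14, chr3:50611725-50612024, minus strand, 250 bases before to 50 after the gene start) has the motif in capitals:
CISH: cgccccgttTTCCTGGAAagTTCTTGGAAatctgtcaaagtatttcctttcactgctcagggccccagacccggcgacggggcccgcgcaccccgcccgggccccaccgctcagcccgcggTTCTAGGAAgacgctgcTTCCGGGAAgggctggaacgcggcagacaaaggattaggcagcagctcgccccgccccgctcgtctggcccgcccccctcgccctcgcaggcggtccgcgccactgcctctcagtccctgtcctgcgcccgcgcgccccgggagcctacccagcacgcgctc

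Of the 10 genes with the strongest rises, 2 had an interval of A3 minus A2 within 1.5-fold, against 63% of all genes tested. In 4 of the 10 the values with A3 and A2 did not overlap, which held for 15.2% of all genes tested. TXNIP, an inhibitor of thioredoxin and of glucose uptake, had signals of 5223.7, 4739.8 and 4647.4 with A3 and 4713.2, 5544.7 and 4680.5 with A2, against 416.7, 459.8 and 510.8 with A1. Its log2 difference between A3 and A2 was -0.03 (interval -0.30 to 0.24), within 1.5-fold. CCR7, the receptor that guides lymphocytes to lymph nodes, had 585.8, 533.2 and 645.3 with A3 and 745.5, 799.2 and 752.9 with A2, against 100.1, 95.3 and 95.8 with A1. Here the groups of A3 and A2 did not overlap, though the log2 difference of -0.38 did not pass the test (adjusted p = 0.329). Of the other 8 leading genes that rose, A3 minus A2 ranged from -0.30 for ID3, an inhibitor of DNA-binding factors, to 0.58 for H2AC6, a histone H2A gene, and none passed. Of the other leading genes that fell, it ranged from -0.41 for SOCS1, a further cytokine brake, to 0.63 for HBEGF, a growth factor of the EGF family, and none passed. Further probe sets gave -0.67 and -0.29 for SOCS1 and 0.11 for HBEGF.

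For the target and the genes the study singled out, no difference between the compounds passed the test. ALK itself had signals of 3138.7, 2380.6 and 2682.3 with A3 and 2884.1, 3068.4 and 2699.5 with A2, against 2958.6, 4026.9 and 3942.2 with A1. The log2 difference of A3 minus A2 was -0.08 (interval -0.36 to 0.20, adjusted p = 0.915), and its other probe set gave 0.12 (adjusted p = 0.88). From A1 the difference was -0.41 with A3 (limma adjusted p = 0.0247) and -0.32 with A2 (adjusted p = 0.0702). NPM1, a frequent fusion partner of ALK and a nucleolar chaperone, gave 0.04 (interval -0.24 to 0.32). CEBPB, a transcription factor induced by the fusion kinase, averaged 1720 with A3 and 1710 with A2 against 4880 with A1, a log2 difference between the compounds of 0.01 (interval -0.21 to 0.22). BCL2A1, an anti-apoptotic protein of the BCL2 family, had 98.4, 142.2 and 82.4 with A3 and 109.9, 126.6 and 79.4 with A2 against 1146.1, 744.0 and 939.2 with A1, a log2 difference of 0.02 (interval -0.40 to 0.44). All 4 had intervals within 1.5-fold.

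The 5 genes called higher with A3 were HPCAL1, OXLD1, CCDC92, KLF2 and HSD17B3. HPCAL1, a neuronal calcium sensor, had signals of 601.4, 575.7 and 612.5 with A3 and 389.6, 403.3 and 381.3 with A2, against 1480.5, 1367.7 and 1426.3 with A1. It fell with both compounds and less with A3, by 1.24 on the log2 scale against 1.84 with A2, and the difference was 0.59 (SE 0.099, adjusted p = 0.0295). OXLD1, a protein with an oxidoreductase-like domain, had the same order, with 174.8, 196.3 and 191.1 with A3 and 120.2, 121.7 and 104.9 with A2 against 302.1, 337.1 and 293.7 with A1. Its log2 difference was 0.65 (SE 0.118, adjusted p = 0.0386), and its other probe set gave 0.67 (adjusted p = 0.189). CCDC92, a coiled-coil protein, rose with both and more with A3: signals were 579.1, 692.1 and 557.7 with A3 and 328.8, 394.2 and 323.8 with A2, against 161.1, 191.9 and 178.9 with A1. Its log2 difference was 0.79 (SE 0.132, adjusted p = 0.0295).

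KLF2, a transcription factor of resting T cells that FOXO factors induce, was called higher with A3 than with A2 and stood above the controls with A3. Its signals were 217.3, 228.6 and 206.5 with A3 and 136.0, 130.3 and 115.7 with A2, against 146.1, 122.6 and 160.8 with A1 and 151.0, 148.2 and 153.6 in U. The log2 difference from A1 was 0.57 with A3 (adjusted p = 0.00252) and -0.15 with A2 (adjusted p = 0.413), and A3 minus A2 was 0.73 (SE 0.131, adjusted p = 0.0386). HSD17B3, which makes testosterone in the testis, had the widest gap, at low signal: 57.0, 67.2 and 70.4 with A3 and 25.1, 10.4 and 9.3 with A2, against 42.2, 47.8 and 59.8 with A1. With A2 it was below A1 (log2 -1.27, adjusted p = 0.0029) and with A3 the difference from A1 did not pass (0.32, adjusted p = 0.451). Its log2 difference of 1.60 (SE 0.296, adjusted p = 0.04) ranged from 1.06 to 2.18 over alternative settings, with the constant added before the log setting both ends.

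Among the 8 genes called lower with A3, CEP43, PPM1B and SPC25 were higher with A2 than with A3 or A1. CEP43, a centrosomal protein, had signals of 141.1, 172.5 and 148.9 with A3 and 314.1, 269.4 and 304.8 with A2, against 141.1, 155.1 and 137.6 with A1. It rose with A2 (log2 0.98, adjusted p = 1.16e-05), its difference from A1 with A3 was 0.08 (adjusted p = 0.664), and A3 minus A2 was -0.90 (SE 0.124, adjusted p = 0.0136), the lowest adjusted p of the comparison. PPM1B, a serine and threonine phosphatase, had 156.9, 204.2 and 148.6 with A3 and 303.0, 292.7 and 343.6 with A2, against 246.6, 244.8 and 189.6 with A1. Its difference of -0.85 (SE 0.141, adjusted p = 0.0295) stood beside a fall from A1 with A3 (-0.40, adjusted p = 0.0379) and a rise with A2 (0.45, adjusted p = 0.0197). SPC25, a subunit of the NDC80 complex that ties kinetochores to microtubules, had 215.5, 201.1 and 268.9 with A3 and 405.9, 443.8 and 366.3 with A2, against 310.3, 257.3 and 212.8 with A1. Its difference was -0.80 (SE 0.148, adjusted p = 0.04).

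The other 5 genes called lower with A3 were SRSF7, GSPT1, RBM12, U2SURP and BCLAF1. SRSF7, a splicing factor of the SR family, had signals of 896.3, 822.0 and 899.7 with A3 and 1331.5, 1416.3 and 1370.9 with A2, against 2724.9, 2835.3 and 3052.2 with A1. It fell with both compounds, further with A3 (log2 -1.71) than with A2 (-1.06), and A3 minus A2 was -0.65 (SE 0.097, adjusted p = 0.0169). GSPT1, the translation release factor eRF3a, showed the same order, with 329.9, 387.5 and 325.3 with A3 and 587.8, 602.9 and 515.9 with A2 against 930.7, 744.7 and 987.8 with A1 (A3 minus A2 of -0.70, adjusted p = 0.0386). RBM12, an RNA-binding protein, had 441.8, 472.4 and 361.6 with A3 and 652.9, 788.5 and 748.6 with A2, and its log2 difference from A1 was -0.96 with A3 (adjusted p = 4.39e-05) and -0.20 with A2 (adjusted p = 0.313). Its difference between the compounds was -0.77 (adjusted p = 0.0386).

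U2SURP, a protein associated with the U2 particle of the spliceosome, had 848.0, 933.0 and 766.2 with A3 and 1173.2, 1485.4 and 1250.9 with A2, a log2 difference of -0.61 (SE 0.117, adjusted p = 0.0472). BCLAF1, a nuclear protein linked to transcription and RNA processing, had 1192.1, 1055.8 and 1115.0 with A3 and 1567.1, 1791.7 and 1848.3 with A2, a log2 difference of -0.62 (SE 0.119, adjusted p = 0.0469). For both, the A3 level lay below the level with A1, which averaged 1200 for U2SURP and 1550 for BCLAF1, and the A2 level was near it. In none of the 13 genes did the 3 values with A3 overlap the 3 with A2, which over all genes tested held for 1308 (15.2%).

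**Figure D3:**
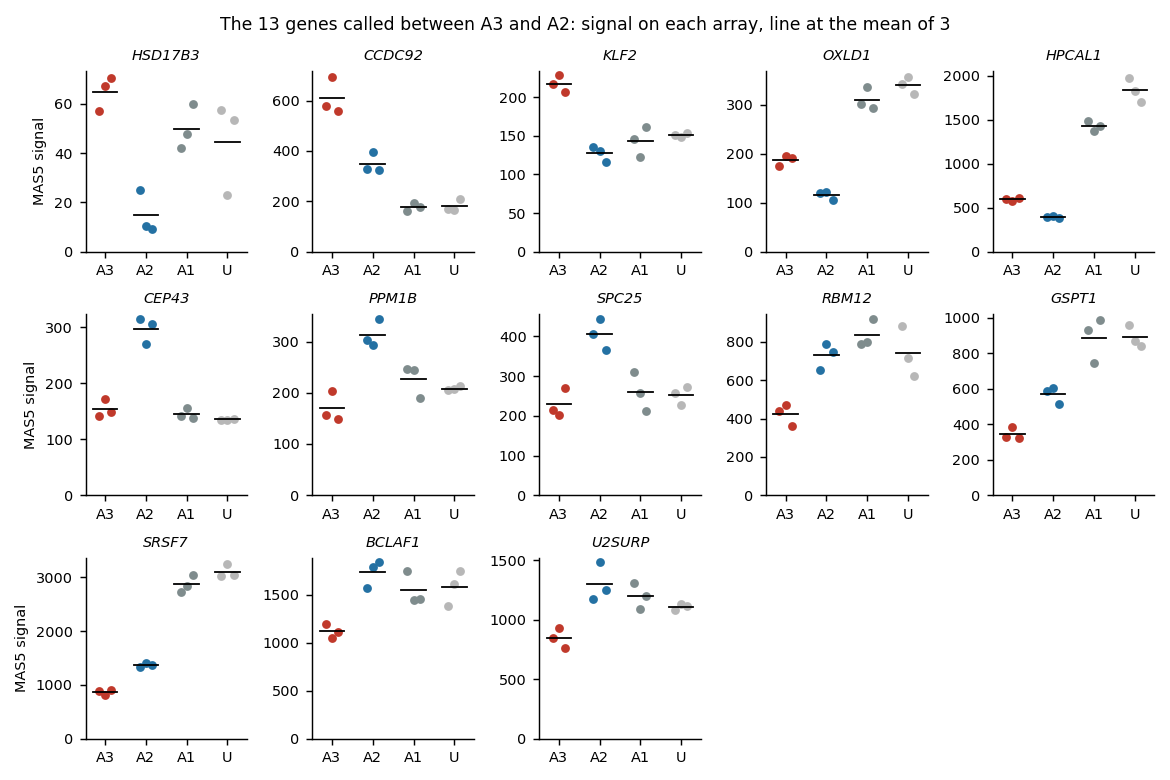
MAS5 signal of the 13 genes called between A3 and A2, on each array of A3, A2, A1 and U, with a line at the mean of 3. In every panel the A3 and A2 points do not overlap, and HPCAL1, OXLD1, SRSF7 and GSPT1 lie below A1 and U with both compounds.

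Further probe sets of the called genes gave a mixed picture. BCLAF1 had 3 more, all lower with A3 (log2 -0.93, -0.74 and -0.91, adjusted p = 0.422, 0.148 and 0.0773), GSPT1 had 1 (-0.50, adjusted p = 0.189) and U2SURP had 2 (-0.35 and -0.46, adjusted p = 0.59 and 0.408). SRSF7 had -0.38, -0.41 and 0.05 in its other probe sets, and the 1 used for it and that for GSPT1 are of the type that the array's makers mark as able to hybridise to related sequences. For CEP43, PPM1B, RBM12 and HPCAL1 the other probe set did not show the difference (-0.01, 0.17, 0.10 and 0.06), so these 4 calls rest on 1 probe set each. HSD17B3, KLF2, CCDC92 and SPC25 had no further probe set that passed the filter. Testing all 14565 probe sets that passed the filter called 6 (0.0412%), of CEP43, SRSF7, PPM1B, HPCAL1, CCDC92 and PTP4A2.

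Most genes of mitosis had lower levels with A3 than with A2, by small amounts, and no member passed the test. Of 41 tested genes of G2/M and mitosis, 39 were lower with A3 than with A2, and in 15 (36.6%) the 3 values with A3 were all below the 3 with A2, against 7.9% of all genes tested. In limma's test 0 were called (9 lower and 0 higher at an unadjusted p below 0.05), against 0.151% and 8.87% of all genes tested. SPC25 is not on the list. In the shared response 34 of the 41 were called higher than with A1, with a median log2 change of 0.46 with A3 and 0.68 with A2, and the median of A3 minus A2 was -0.153, against 0.007 over all genes. The mean log2 level of the list relative to A1 was 0.491, 0.490 and 0.546 on the A3 arrays and 0.704, 0.662 and 0.694 on the A2 arrays. The groups did not overlap, and both stood above A1 and U. Over 22 alternative settings the median stayed between -0.195 and -0.134, and it was -0.138 without A3 replicate 2. Settings that left out A1 or U arrays, or changed only the estimate of spread, could not move it. The same holds for the other medians given over these alternatives.

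KIF4A, a kinesin that acts on chromosomes and the spindle midzone, had signals of 488.9, 548.4 and 569.1 with A3 and 800.3, 747.2 and 872.1 with A2, against 504.4, 406.7 and 412.6 with A1 (A3 minus A2 of -0.58, interval -0.86 to -0.31, adjusted p = 0.12). KIFC1, a kinesin that clusters spindle poles, had 370.3, 326.6 and 357.6 with A3 and 577.8, 504.8 and 670.4 with A2, against 276.7, 237.6 and 327.7 with A1 (-0.71, interval -1.09 to -0.32, adjusted p = 0.233). BUB1, a kinase of the spindle checkpoint, averaged 555 with A3 and 782 with A2 against 413 with A1 (-0.48, adjusted p = 0.25). Further probe sets of BUB1 gave smaller differences, -0.229 and -0.225. The A2 values were the highest of the 3 groups in each of these genes, and none passed the test between compounds. CDC25C and NUSAP1, which had the largest rises of the list from A1 (log2 1.41 and 1.16), had differences of -0.06 and -0.11 between A3 and A2. Their other probe sets gave -0.3 and 0.002.

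Promoters of these genes often hold the letters TTTGAA, the core of the cell cycle genes homology region that the DREAM complex is known to bind. Counting both strands, 21 of 34 promoters of the tested G2/M genes held it (61.8%), against 728 of 7087 promoters of genes tested (10.3%) and 15.4% of all 27305 promoters. Of the 8 genes called lower with A3, 1 held it, SPC25. The promoters of SPC25, KIF4A and KIFC1 are shown as examples that hold the motif. They are genes of chromosome segregation whose A3 values all lay below their A2 values. That held for 15 of the 41 genes of the list, BUB1 among them, so it does not single out those shown. The motif, or its reverse complement in KIFC1, is in capitals, and starts at -3 and -247 from the annotated gene start in SPC25 and at -34 in KIF4A. Sequences are from RefSeq, build GRCh38.p14, each running from 250 bases before to 50 after the start, on chr2:168890381-168890680 (minus strand), chrX:70289854-70290153 (plus strand) and chr6:33391573-33391872 (plus strand). A match describes letters and does not show binding:
SPC25: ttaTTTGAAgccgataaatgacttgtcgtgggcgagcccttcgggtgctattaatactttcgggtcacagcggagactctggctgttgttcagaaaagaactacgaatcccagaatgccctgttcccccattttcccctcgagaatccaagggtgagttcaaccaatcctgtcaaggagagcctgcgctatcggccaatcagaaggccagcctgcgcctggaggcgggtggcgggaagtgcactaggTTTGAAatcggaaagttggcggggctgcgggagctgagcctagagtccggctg
KIF4A: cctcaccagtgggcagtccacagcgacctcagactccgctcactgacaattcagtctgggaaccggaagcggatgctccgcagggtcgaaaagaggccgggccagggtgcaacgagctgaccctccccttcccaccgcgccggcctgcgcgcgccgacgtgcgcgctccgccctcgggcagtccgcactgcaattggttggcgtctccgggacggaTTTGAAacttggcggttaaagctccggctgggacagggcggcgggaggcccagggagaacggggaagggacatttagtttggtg
KIFC1: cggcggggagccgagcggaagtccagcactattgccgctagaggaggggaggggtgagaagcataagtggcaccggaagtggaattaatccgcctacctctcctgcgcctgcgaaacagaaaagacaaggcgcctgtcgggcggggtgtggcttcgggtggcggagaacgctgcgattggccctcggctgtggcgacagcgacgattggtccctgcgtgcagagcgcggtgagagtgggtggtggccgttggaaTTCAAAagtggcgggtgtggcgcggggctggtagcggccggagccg

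Most genes of G1/S and DNA replication also had lower levels with A3. Of 42 tested, 35 were lower, 15 without overlap (35.7%), against 7.9% of all genes tested that were lower without overlap. In limma's test 0 were called (8 lower and 1 higher at an unadjusted p below 0.05), against 0.151% and 8.87% of all genes tested. The median log2 change from A1 was 0.05 with A3 and 0.30 with A2, and the median of A3 minus A2 was -0.162, between -0.212 and -0.114 over the alternatives, and -0.114 without A3 replicate 2. Level means relative to A1 were 0.097, -0.001 and 0.129 on the A3 arrays and 0.327, 0.182 and 0.204 on the A2 arrays. The groups did not overlap, and the A3 arrays lay within the range spanned by A1 and U. MCM5, a subunit of the replicative helicase, had signals of 936.8, 1062.3 and 1024.1 with A3 and 1419.2, 1344.1 and 1266.0 with A2, against 736.4, 628.6 and 703.5 with A1 (A3 minus A2 of -0.41, adjusted p = 0.253). A second probe set of MCM5 gave -0.215. POLA2, a subunit of DNA polymerase alpha, had 167.7, 182.2 and 191.9 with A3 and 281.8, 228.6 and 257.3 with A2, against 182.7, 173.6 and 191.9 with A1 (-0.48, adjusted p = 0.235). Only 1 of 39 G1/S promoters (2.56%) held TTTGAA. It was in 5 of 12 promoters of tested histone genes (41.7%), a list higher with A3, and in 4 of 9 of MHC class II genes (44.4%). The letters were thus not particular to lists lower with A3.

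Most histone genes had higher levels with A3. Of 30 on the list 12 were tested, 10 of them were higher with A3 than with A2, and 4 (33.3%) were higher without overlap, against 7.34% of all genes tested. None was called (limma, with 4 higher and 0 lower at an unadjusted p below 0.05), against 0.151% and 8.87% of all genes tested. The median of A3 minus A2 was 0.274, between 0.214 and 0.327 over the alternatives. The mean level relative to A1 was 0.989, 0.981 and 1.028 on the A3 arrays and 0.654, 0.837 and 0.589 on the A2 arrays, without overlap. H2AC6 had signals of 661.4, 730.0 and 668.8 with A3 and 434.3, 491.3 and 446.8 with A2, against 94.3, 89.4 and 114.3 with A1, a log2 difference of 0.58 between the compounds (interval 0.31 to 0.84, adjusted p = 0.11). H2BC12, a histone H2B gene, had 803.9, 752.1 and 833.9 with A3 and 543.8, 569.6 and 487.3 with A2, against 276.7, 288.0 and 344.3 with A1 (0.57, adjusted p = 0.0718). With array weights H2BC12 passed (0.58, adjusted p = 0.0361). Histone genes share near-identical sequences, so a probe set can read several of them.

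**Figure D4:**
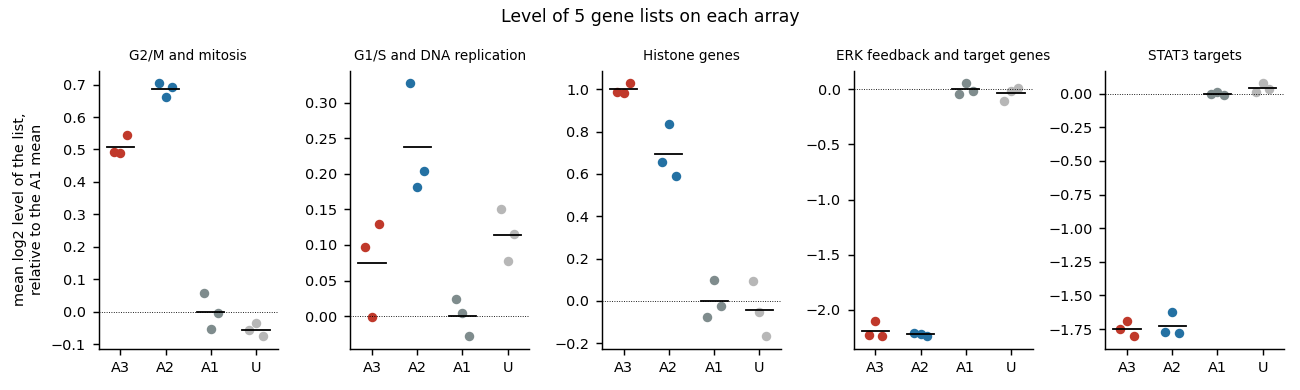
Mean log2 level of 5 gene lists on each array, relative to the mean of the A1 arrays, with a line at each group's mean. A3 and A2 separate for the G2/M, G1/S and histone lists and overlap for the ERK and STAT3 lists, and the vertical scale differs between panels.

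Over the 23 lists KLF2 was the only member called, where 0.151% of all genes tested were called. Of MYC targets and ribosome biogenesis genes 31 were tested, 25 were lower in the response, and the median of A3 minus A2 was 0.001, with TSR1, a factor of ribosome assembly, at -0.62 (adjusted p = 0.267) and -0.07 and -0.94 in its other probe sets. The nucleolar chaperone NOLC1 was at 0.37 (adjusted p = 0.489), and its other probe sets gave -0.20 and 0.20, so its direction turned with the probe set. FOXO targets had a median of 0.001 over 17 genes, and CDKN1A, the cyclin-dependent kinase inhibitor p21, had 1052.5, 944.6 and 1027.4 with A3 and 824.5, 769.0 and 758.0 with A2 (0.36, adjusted p = 0.329). The ALCL activation list had a median of -0.029 over 22 genes, and BATF3, an AP-1 factor of ALCL, had 438.1, 487.3 and 519.0 with A3 and 388.4, 328.3 and 301.9 with A2 against 2387.1, 2471.8 and 2031.0 with A1 (0.50, adjusted p = 0.233). In T-cell identity genes the median was 0.040 over 16, with CD3D, a subunit of the T-cell receptor complex, at 0.29 without overlap (adjusted p = 0.453).

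Lists of stress and metabolic routes held no gene called between A3 and A2 in limma's test. Over all 8587 genes tested only 0.151% were called, so a count of 0 in lists of this size is near that share. An unadjusted p below 0.05 was found for 8.87% of all genes tested. The list of targets of AHR and NRF2, sensors of foreign chemicals and oxidants, had a median of 0.010 over 14 genes (0 at an unadjusted p below 0.05). Heat shock genes had a median of 0.049 over 18 (2 lower at an unadjusted p below 0.05), p53 targets -0.011 over 17 (1 higher), and the ATF4 amino acid response 0.007 over 29 (3 higher). Glycolysis, cholesterol synthesis and metallothionein lists had medians of -0.007, -0.034 and -0.042, with 0 members at an unadjusted p below 0.05. The NF-kB list had a median of 0.033, interferon response 0.054, MHC class II -0.008, and the BCL2 family -0.052. The lists of other cell types had medians above that of all genes, 0.196 over 7 B-cell, 0.111 over 5 myeloid and 0.092 over 9 epithelial and stromal markers. Over the alternatives the B-cell median lay between -0.092 and 0.326, the myeloid one between 0.002 and 0.192, and the epithelial and stromal one between 0.020 and 0.165.

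**Figure D5:**
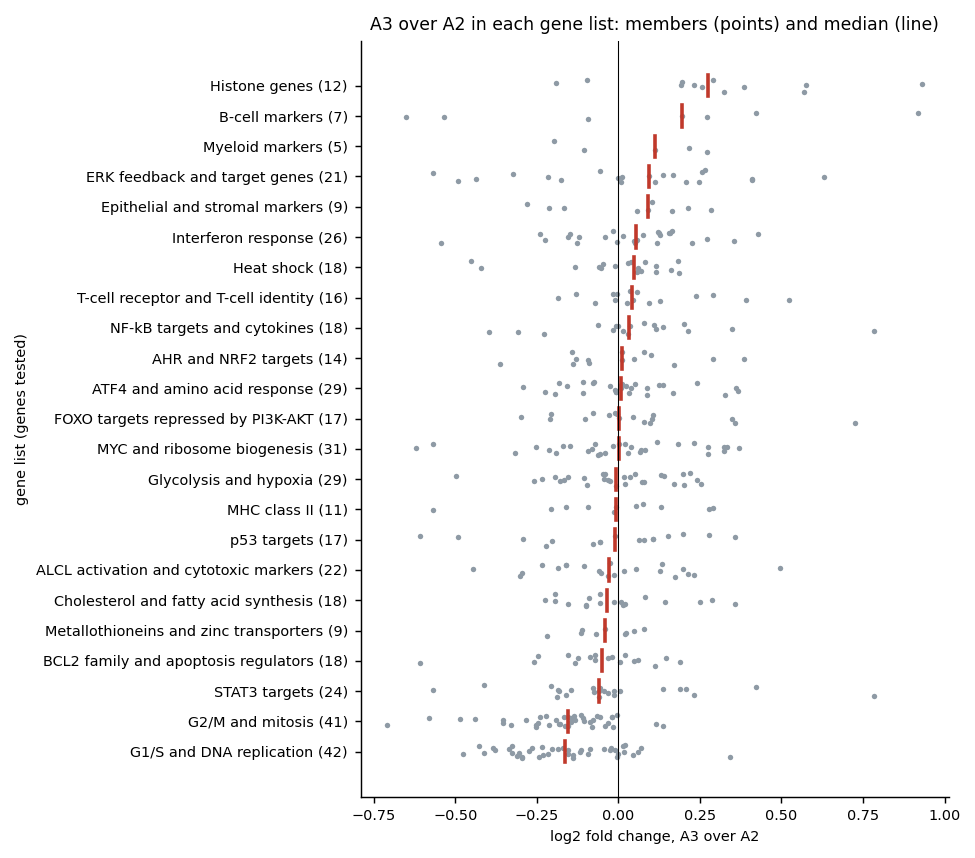
The log2 fold change of A3 over A2 for each tested gene of the 23 lists, with a red line at the list's median and the number of genes tested in parentheses. Medians ran from -0.162 for G1/S and DNA replication to 0.274 for histone genes, and those of the ERK and STAT3 lists were 0.094 and -0.058.

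Genes that change when ALK itself is removed gave a last view. A separate fit of the 21 hairpin arrays called 977 of 9097 genes (10.7%) with at least 2-fold change in TS cells carrying the lentiviral ALK hairpin after 84 h with doxycycline, against the same cells without it, on arrays that the comparison of A3 with A2 did not use. In the 456 that rose on ALK loss and were tested here, the median of A3 minus A2 was 0.042, and 54 (11.8%) were higher and 18 (3.95%) lower with A3 without overlap. In the 449 that fell and were tested here, the median was -0.084, 300 were lower and 149 higher with A3, and 82 (18.3%) were lower and 15 (3.34%) higher without overlap, against 7.9% and 7.34% of all genes. At 6 h these 449 had moved little from A1, with median log2 changes of -0.131 with A3 and -0.075 with A2. Only 231 of them were lower than A1 with both compounds. Of the 456, 317 were higher than A1 with both, with medians of 0.388 with A3 and 0.377 with A2. The overlap of these sets with the cell cycle lists is not given here. A mean over these genes in the direction of ALK loss, relative to A1, was 0.323, 0.382 and 0.320 on the A3 arrays and 0.249, 0.318 and 0.281 on the A2 arrays. The groups touched but did not overlap, at a margin far smaller than the spread within either. The medians ranged from 0.018 to 0.060 and from -0.102 to -0.069 over the 22 alternatives.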

How the data were processed

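The members and the gene lists were chosen with earlier results of these data known. Per the submitters' processing notes the authors made the deposited intensity values with MAS5, an algorithm that contrasts perfectly matched with mismatched probes and rescales each array. No version or settings of MAS5 are named in the sources used here. Of 22283 probe sets, 68 controls were left out. The platform annotation gave 1 symbol for 19065, several for 1043 (not named) and none for 2107, and gene IDs of 19053 matched the table of assembly GRCh38.p14.

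The log2 of each signal plus 11 was used, a constant rounded from 10.8, the 20th percentile of the table. A probe set was kept at its array's 40th percentile or above on at least 3 of the 12 arrays, and for each gene that with the highest mean over 33 arrays was used. limma 3.58.1 in R 4.3.3 (lmFit, eBayes with a trend, 8 residual and 8.8 prior degrees of freedom) fitted the 12 arrays with a mean per group. P-values are two-sided, adjusted by Benjamini-Hochberg over genes, and called below 0.05. The procedure was tested on simulated data. Figures used matplotlib 3.10.9 in Python 3.11.15.

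Named genes were ALK, NPM1, CEBPB and BCL2A1, all genes called between A3 and A2 without overlap, the 10 highest and 10 lowest of the shared response, and from each list up to 4 members by the size of the moderated t between A3 and A2 and up to 2 by the response. CISH, PTP4A2 and the marker genes fall outside this rule or were chosen after their values were seen. Promoters came from RefSeq and the results of the alternatives follow.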

Additional observations from a re-analysis of the deposited data

How the results depend on the processing

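The count of 13 genes called between A3 and A2 changed with many choices. It was 0 with the 6 arrays of A3 and A2 alone (818 genes at an unadjusted p below 0.05, limma), where residual degrees of freedom were 4. It was 1 with the replicate number as a block (replicate block), 3 with no filter, 7 with the ACTB ratio as a covariate, 22 with array weights and 1 with no mean-variance trend. Over all probe sets it was 6, with all genes and all 6 pairs adjusted together 237, and with the adjusted p multiplied by the 6 pairs, added after the data were seen, 0. Leaving out each array in turn gave 0 to 17. It was 13 to 15 with the other constants, the stricter filter and quantile normalization. Numbers did not pair the samples: deviations of same-numbered A3 and A2 arrays correlated at 0.052, 0.108 and -0.008. None of the 13 genes changed sign, but in groups without overlap leaving out an array cannot change it, so this says little about stability. CEP43 kept its call in 17 of 22 alternatives and U2SURP in 7. The median of A3 minus A2 over response genes, signed along the response, was -0.020, from -0.032 to 0.013 leaving out arrays, and 0.060 over the genes of the ALK hairpin. The cause of these changes was not tested.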

Other observations

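PTP4A2, a phosphatase linked to growth and chosen here after its values were seen, was called in the test of all probe sets through 1 of its 4 probe sets, at 630 ± 82.2 with A3 and 357 ± 19.3 with A2 (SD, n = 3 each; log2 difference 0.80, limma adjusted p = 0.0472). A second gave 0.75 (adjusted p = 0.0834), with 937 ± 61.3 with A3 and 558 ± 115 with A2. The other 2 probe sets, brighter in signal, gave 0.13 and -0.04 (adjusted p = 0.739 and 0.939), so probe sets of the same gene disagreed. TAP1, the peptide transporter of antigen presentation, had signals of 321.1, 139.2 and 345.2 with A3, the low value being that of A3 replicate 2, and averaged 183 with A2. Its log2 difference was 0.43 (adjusted p = 0.627) and, without A3 replicate 2, 0.83 (adjusted p = 0.0448).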
